A study of Mus musculus with 8 samples.

Results

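The guidance genes of the ephrin, Slit-Robo and netrin systems were followed in cultured mouse bone marrow stromal cells with and without Lgr6. Members were chosen by gene symbol alone: Eph receptors, ephrins, Slits, Robos, numbered netrins, symbols starting with Unc5, and Dcc, Neo1, Rgma and Rgmb. Of 19460 genes in the table, 35 matched. One of them, Unc50, encodes a Golgi membrane protein whose symbol only resembles those of the netrin receptors; it is counted but set apart. Other genes of these families are not analysed here. RNA came from 4 libraries per genotype of cells from adult C57BL/6 mice. The Lgr6-null cells were homozygous for Lgr6-GFP-ires-CreERT2, an allele that carries a fluorescent reporter and an inducible recombinase, and the other cells were labelled wild type. Both genotypes were grown to near confluence and then kept for 10 days in osteogenic medium, which held β-glycerophosphate at 4 mM, ascorbic acid at 50 µg/mL and serum at 10%. The labels do not say how many animals or cultures the libraries of a genotype came from, so the p-values reflect only how far these libraries differ, which may be technical.

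Eph receptors are tyrosine kinases whose ligands, the ephrins, are tethered to neighbouring cells, by a lipid anchor in class A and by a transmembrane segment in class B. Contact can signal into both cells. Slits are secreted ligands of Robo receptors, and netrins are laminin-like secreted proteins that bind Dcc, neogenin (Neo1) and the Unc5 receptors; neogenin also binds repulsive guidance molecules (Rgma, Rgmb), which act as BMP co-receptors. These systems steer growing axons and vessels. In bone, ephrin-B2 and EphB4 are known as a ligand and receptor pair between osteoclasts and osteoblasts, and Slit3 as a secreted factor of bone cells.

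The genotype labels were checked with Lgr6, which had 64.3, 76.2, 103 and 61.1 normalized counts in the Lgr6-null libraries, against 1667, 1390.0, 996 and 1096 in the wild-type libraries. Throughout, Lgr6-null values follow the column numbers M0, M2, M3, M4, and wild-type values M0, M1, M2, M3. The Lgr6 levels did not overlap (two-sided exact permutation p = 0.0286, the smallest that 4 against 4 libraries allow). The libraries held 7629968 to 21135173 reads in genes, with Lgr6-null M4 the shallowest and Lgr6-null M3 the deepest. All 12 osteoblast markers on the list fell in Lgr6-null, with summed normalized counts of 289252 to 366731 in Lgr6-null, against 1652510.0 to 2174991 in wild-type. Most of these counts came from Col1a1, Col1a2, Ibsp and Spp1. Phex was low in Lgr6-null, at 40.1 to 196, against 1552 to 2918 in wild-type. Of 13 macrophage markers 10 rose and 0 fell, with a summed level of 404113 to 609629.8 in Lgr6-null, against 264597 to 313743 in wild-type. Of 7 endothelial markers tested 1 rose and 3 fell, and their sum, with 10 of 12 in the table and Sox17 and Cldn5 not among them, was 109 to 149 in Lgr6-null, against 154 to 230.0 in wild-type. Pericyte and smooth muscle markers summed to 18061 to 23594 in Lgr6-null, against 9758 to 18576 in wild-type, and 3 of 8 tested rose and 1 fell. Most of that sum came from Acta2. The marker that fell was Cspg4, with a mean of 742 in Lgr6-null, against 4178 in wild-type. Of 6 osteoclast markers tested 1 rose and 3 fell, with sums of 3228 to 3946 in Lgr6-null, against 5164 to 6005 in wild-type. Adipocyte markers, of which 0 rose and 3 fell among 6 tested, summed to 3337 to 5156 in Lgr6-null, against 5010.4 to 8951 in wild-type, and Schwann cell and neuron markers, with 0 calls among 3 tested, to 527 to 868 in Lgr6-null, against 538 to 768 in wild-type. Most of the osteoclast sum came from Ctsk and Nfatc1, and most of the adipocyte sum from Lpl and Cebpa. Adipoq had means of 38.1 in Lgr6-null and 38.8 in wild-type. Tubb3 and S100b made up most of the Schwann cell and neuron sum, with Elavl3, Snap25, Syt1 and Nefl not in the table. The part of these cell types in the results was not tested. In such bulk libraries, fewer cells of a type and less RNA per cell cannot be told apart.

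Guidance genes changed in both directions. Of the 35 members, 30 passed the filter of at least 10 normalized counts in at least 4 libraries, and 7 of these rose and 11 fell in Lgr6-null at a Benjamini-Hochberg adjusted p under 0.05 in limma, adjusted over all 14294 genes tested. The background was high: 25.7% of all tested genes were called, 13.0% higher and 12.7% lower (1855 and 1821 genes). That split turned on the scaling, with 2886 higher and 1281 lower when libraries were set to equal totals, and 658 and 2964 when they were set to 15 pan-mesenchymal genes, shifting the median over all genes to -0.22; the guidance genes gave 8 and 10, and 6 and 13. The 4 Lgr6-null values lay wholly above or below the 4 wild-type values in 17 of the 30 members, against 29.1% of all tested genes. A called change of at least 2-fold was seen in 10 members, 4 higher and 6 lower, where the background share was 7.32%. The median log2 fold change was -0.09 over the 30 members and 0.00 over all tested genes. The largest fall was in the Slit receptor Robo2 (-3.99) and the largest rise in the netrin Ntn4 (2.01). Calls within a family often differed: the class A receptors, the class B receptors, the class B ephrins and the netrins each held at least 1 rise and 1 fall.

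**Figure D1:**
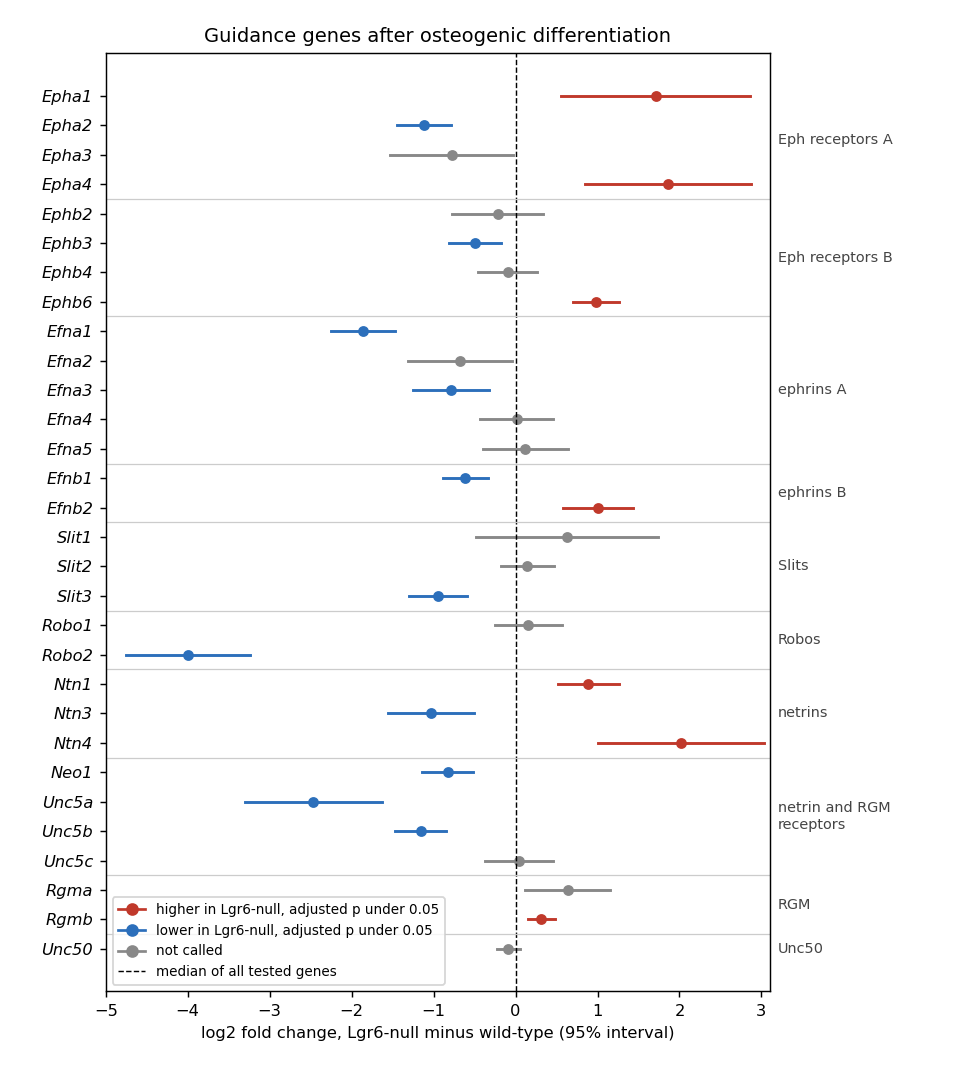
Log2 fold changes (Lgr6-null minus wild-type, on log2(normalized count + 1)) of the 30 members that passed the filter, by family; points are estimates, lines 95% intervals from limma, and the dashed line the median of all tested genes. Red members rose, blue members fell and grey members were not called; Robo2 lies farthest to the left, at -3.99, and Ntn4 farthest to the right, at 2.01.

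Promoter sequences are shown for 4 called members, the strongest fall (Robo2), the strongest rise (Ntn4), the member with the highest level per length (Unc5b) and the only member with a TCF/LEF match (Epha2). Each runs 5′ to 3′ from 250 bases before to 50 bases after a RefSeq gene start on GRCm38.p6. Capitals mark the letters TGTGGT (a Runx core), CTTTGAA or CTTTGAT (TCF/LEF) and GGGCGG (a GC box), searched on both strands, with overlapping matches counted each. The windows are chr16:75447244-75447543, minus strand; chr10:93640799-93641098, plus strand; chr10:60831532-60831831, minus strand; and chr4:141300971-141301270, plus strand. Robo2 has 3 annotated starts, of which the most upstream on its strand is shown.
Robo2: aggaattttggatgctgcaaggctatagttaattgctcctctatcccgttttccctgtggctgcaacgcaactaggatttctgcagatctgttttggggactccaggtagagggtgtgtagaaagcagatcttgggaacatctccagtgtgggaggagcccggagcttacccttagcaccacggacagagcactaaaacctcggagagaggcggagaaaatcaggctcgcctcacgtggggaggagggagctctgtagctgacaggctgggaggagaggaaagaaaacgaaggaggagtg
Ntn4: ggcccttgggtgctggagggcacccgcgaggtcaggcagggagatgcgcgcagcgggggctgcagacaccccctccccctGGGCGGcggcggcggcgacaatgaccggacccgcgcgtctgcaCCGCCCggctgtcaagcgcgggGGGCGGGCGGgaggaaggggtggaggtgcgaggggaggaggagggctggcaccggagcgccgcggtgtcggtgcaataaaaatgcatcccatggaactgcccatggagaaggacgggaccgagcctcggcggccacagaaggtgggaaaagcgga
Unc5b: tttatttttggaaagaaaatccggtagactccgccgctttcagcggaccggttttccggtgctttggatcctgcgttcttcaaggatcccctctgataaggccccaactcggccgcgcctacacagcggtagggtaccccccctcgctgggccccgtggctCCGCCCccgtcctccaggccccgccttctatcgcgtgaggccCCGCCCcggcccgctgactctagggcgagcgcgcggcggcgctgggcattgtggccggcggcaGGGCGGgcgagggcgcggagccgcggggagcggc
Epha2: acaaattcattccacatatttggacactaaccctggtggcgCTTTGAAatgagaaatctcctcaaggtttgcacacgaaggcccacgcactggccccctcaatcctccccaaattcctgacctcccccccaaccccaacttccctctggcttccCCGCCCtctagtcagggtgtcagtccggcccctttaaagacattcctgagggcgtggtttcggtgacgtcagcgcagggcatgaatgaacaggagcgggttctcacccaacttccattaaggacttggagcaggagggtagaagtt
The printed Robo2 window held none of these letters and 53.3% G and C; its other starts, also without a match, were at 45% and 65.0%. The Epha2 window was at 54.7%, with 1 GC box match beside the TCF/LEF match. Ntn4 and Unc5b held 4 and 3 GC box matches and 72.0% and 69.7% G and C. Of the 35 members, 30 matched the RefSeq table, with 37 windows. A GC box was found in 26 of the 37 windows and in 35.7% of all 32851 windows, a Runx core in 4 windows (Efna3, Efna4, Unc50 and Unc5c) and in 16.8% of all windows, and a TCF/LEF match in 1 window and in 8.65% of all windows. Median G and C content was 65.7% in the member windows and 52.7% in all windows. These matches describe letters, not bound sites.

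Among class B ephrins, the transmembrane ligands, Efnb2 rose and Efnb1 fell. Efnb2 (ENSMUSG00000001300, chromosome 8), the partner of EphB4, had 265, 220.2, 301 and 424 normalized counts in the Lgr6-null libraries, against 177, 132, 148 and 130.4 in the wild-type libraries. Every Lgr6-null library lay above every wild-type library, with the highest value in library M4, the shallowest (log2 fold change 1.01 with SE 0.19, adjusted p = 0.00440). Efnb1, the most abundant ephrin per length, had 1309, 1803, 1150.0 and 1319 normalized counts in the Lgr6-null libraries, against 1997, 2247, 1966 and 2229 in the wild-type libraries, again without overlap but in the other direction (log2 fold change -0.61 with SE 0.12, adjusted p = 0.00599). The share of Efnb2 in the summed class B ephrin level per kb of exon, which does not depend on how libraries were scaled, was 9.16, 5.74, 11.6 and 13.8% in the Lgr6-null libraries, against 4.26, 2.85, 3.64 and 2.86% in the wild-type libraries. The shares did not overlap. Efnb1 remained the main class B ephrin, at 404 ± 81.8 per kb in Lgr6-null and 611 ± 43.1 per kb in wild-type. Efnb3 did not pass the filter, with 45 reads over the Lgr6-null libraries and 29 over the wild-type libraries, a ratio of read rates of 1.48 with an exact 95% binomial interval from 0.910 to 2.45 that covers counting error only.

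Class A ephrins, the lipid-anchored ligands, fell or were not called. Efna1, which binds EphA2, had 29.2, 22.6, 21.6 and 30.5 normalized counts in the Lgr6-null libraries, against 102, 89.0, 108 and 86.1 in the wild-type libraries (log2 fold change -1.86 with SE 0.18, adjusted p = 9.58e-05). Its Lgr6-null mean was 27.0% of that in wild-type, and the genotypes did not overlap. The share of Efna1 in the summed class A ephrin level per kb was 9.93, 5.92, 9.80 and 8.27% in the Lgr6-null libraries, against 22.4, 21.2, 25.0 and 21.5% in the wild-type libraries, lower in every Lgr6-null library. Efna3 had 50.9, 42.7, 37.9 and 28.6 normalized counts in the Lgr6-null libraries, against 72.3, 74.8, 74.0 and 54.4 in the wild-type libraries (log2 fold change -0.79 with SE 0.21, adjusted p = 0.0200), also without overlap, and its call was lost without wild-type M1 (adjusted p = 0.0601) or M2 (adjusted p = 0.0571). With the replicate block Efna3 was not called either (adjusted p = 0.112). Efna2 had 57.6, 94.6, 40.1 and 113 normalized counts in the Lgr6-null libraries, against 124, 109, 106 and 115 in the wild-type libraries, so that Lgr6-null M0 and M3 were low while M2 and M4 were near the wild-type values. It was not called (log2 fold change -0.68 with SE 0.29, adjusted p = 0.113), but passed without Lgr6-null M4 (log2 fold change -0.90, adjusted p = 0.0314) and with pan-mesenchymal scaling (log2 fold change -0.89, adjusted p = 0.0286). Efna4 had 55.0 to 80.4 normalized counts in Lgr6-null, against 46.8 to 74.9 in wild-type, and Efna5 had 159.8 to 342 normalized counts in Lgr6-null, against 201 to 279 in wild-type. Efna4 at 0.01 (95% interval -0.43 to 0.46) and Efna5 at 0.12 (95% interval -0.40 to 0.64) were not called either. Efna1, Efna3 and Efna4 are neighbours on chromosome 3, with gaps of 32.8 kb between Efna1 and Efna3 and 10.4 kb between Efna3 and Efna4 in the GRCm38 annotation, and of these Efna4 was not called. Efna3 and Efna4 share 344 and 168 exon bases with antisense genes that averaged 1.46 and 4.06 normalized counts.

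Of the class B receptors, Ephb4 (ENSMUSG00000029710, chromosome 5) was not called. It had 425, 455, 291 and 525 normalized counts in the Lgr6-null libraries, against 451, 420.4, 423 and 484 in the wild-type libraries, and the Lgr6-null values spread on both sides of the wild-type values (log2 fold change -0.10 with SE 0.16, adjusted p = 0.704). The 95% interval of the difference ran from -0.45 to 0.26 on the log2 scale. Ephb6, a receptor whose kinase domain lacks catalytic activity, had 337, 442, 482 and 500.2 normalized counts in the Lgr6-null libraries, against 234, 221, 201 and 225 in the wild-type libraries and rose without overlap (log2 fold change 0.98 with SE 0.13, adjusted p = 5.36e-04). Per length, Ephb6 stood at 117 ± 19.4 per kb in Lgr6-null and 58.4 ± 3.65 per kb in wild-type, and Ephb4 at 91.4 ± 21.2 per kb in Lgr6-null and 95.8 ± 6.34 per kb in wild-type. The share of Ephb6 in the summed class B receptor level per kb was 39.6, 45.5, 56.7 and 43.3% in the Lgr6-null libraries, against 27.5, 27.8, 26.7 and 27.0% in the wild-type libraries, higher in every Lgr6-null library. Ephb3 had 195, 183, 174 and 265 normalized counts in the Lgr6-null libraries, against 291, 319, 248 and 284 in the wild-type libraries, with overlap (log2 fold change -0.49 with SE 0.14, adjusted p = 0.0292). Its call was lost without Lgr6-null M0, M2 or M3 and without wild-type M0, M1 or M3 (adjusted p = 0.0639 to 0.0868), and when libraries were set to equal totals (adjusted p = 0.0767). Ephb2 had 112 to 262 normalized counts in Lgr6-null, against 166 to 277 in wild-type and was at -0.22 (95% interval -0.77 to 0.34) without a call.

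Class A receptors parted in direction. Epha2, the main class A receptor per length in both genotypes, had 454, 618, 476 and 580.4 normalized counts in the Lgr6-null libraries, against 1436, 1181, 1142 and 887 in the wild-type libraries. All Lgr6-null values lay below all wild-type values, with a mean 45.8% as high (log2 fold change -1.12 with SE 0.15, adjusted p = 6.77e-04). Its share in the summed class A receptor level per kb was 67.7, 84.8, 84.3 and 71.4% in the Lgr6-null libraries, against 87.6, 89.5, 88.8 and 88.0% in the wild-type libraries, lower in every Lgr6-null library. Epha2 was thus lower together with its ligand Efna1. Epha4, a receptor that binds ephrins of both classes, had 75.2, 32.7, 27.5 and 105 normalized counts in the Lgr6-null libraries, against 9.28, 20.8, 9.58 and 17.7 in the wild-type libraries, low in wild-type and without overlap (log2 fold change 1.86 with SE 0.45, adjusted p = 0.0145). The Epha4 call was lost with the replicate block (adjusted p = 0.0643). Epha1 had 58.5, 17.6, 27.5 and 53.5 normalized counts in the Lgr6-null libraries, against 11.1, 3.79, 10.5 and 21.5 in the wild-type libraries and was called higher with overlapping values (log2 fold change 1.71 with SE 0.52, adjusted p = 0.0360), a call lost without Lgr6-null M0, M3 or M4 and without wild-type M0, M1 or M2 (adjusted p = 0.0523 to 0.102). With the replicate block this call was also lost (adjusted p = 0.167). Epha1 shares 236 exon bases, 6.01% of its exons, with Zyx on the opposite strand, which averaged 2505 normalized counts, and the strand setting of the counting is not given in the sources used here. Epha3 had 189.6, 127, 68.4 and 195 normalized counts in the Lgr6-null libraries, against 340.4, 226, 235 and 157 in the wild-type libraries and was not called (log2 fold change -0.78 with SE 0.34, adjusted p = 0.121), but passed with pan-mesenchymal scaling (adjusted p = 0.0218) and with the replicate block. Epha7 did not pass the filter, with 22 reads in Lgr6-null and 7 in wild-type, of which 5 were in M0. The ratio was 3.00, with an interval from 1.24 to 8.33 that covers counting error only.

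**Figure D2:**
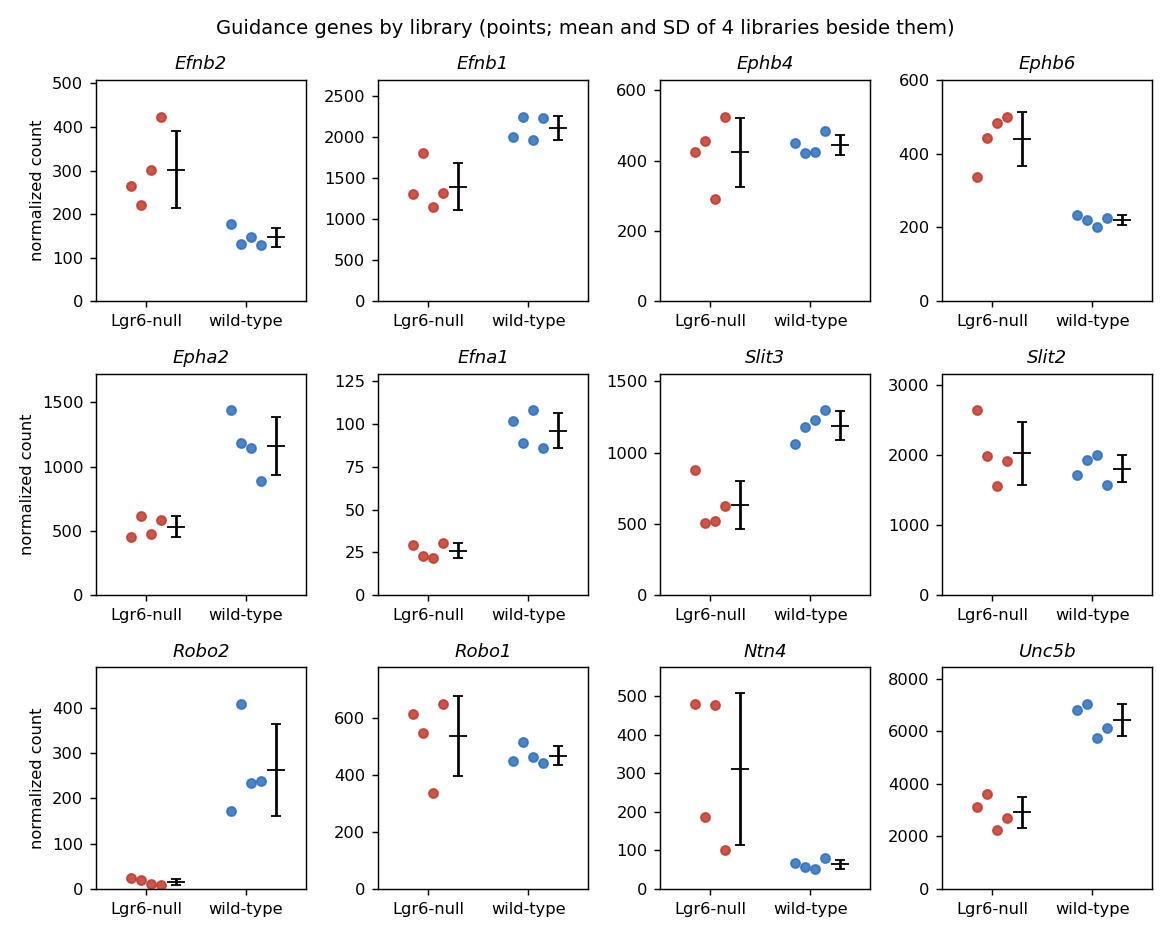
Normalized counts of 12 guidance genes in each library; points are libraries, in red for Lgr6-null and in blue for wild-type, with the mean and SD of 4 libraries beside them and axes from 0. The genotypes overlap for Ephb4, Slit2 and Robo1 and are apart for the other 9 genes; Ntn4 is above 470 in 2 Lgr6-null libraries and below 190 in the other two.

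In the Slit-Robo system, the ligand Slit3 and the receptor Robo2 fell. Slit3 (ENSMUSG00000056427, chromosome 11) had 874, 506, 519 and 626 normalized counts in the Lgr6-null libraries, against 1057, 1178, 1225 and 1295 in the wild-type libraries. The highest Lgr6-null library stayed below the lowest wild-type library, with a mean 53.1% as high (log2 fold change -0.94 with SE 0.16, adjusted p = 0.00230). Slit2, the best known Robo ligand, had 2636, 1990.3, 1554 and 1913 normalized counts in the Lgr6-null libraries, against 1719, 1931, 1999.9 and 1571 in the wild-type libraries, with overlap and without a call (log2 fold change 0.15 with SE 0.15, adjusted p = 0.516, 95% interval -0.18 to 0.47). Slit1 had 40.1, 132, 75.1 and 64.9 normalized counts in the Lgr6-null libraries, against 16.7, 80.5, 73.2 and 44.3 in the wild-type libraries and varied widely within both genotypes (log2 fold change 0.63 with SE 0.50, adjusted p = 0.404). It was called higher only with the replicate block (adjusted p = 0.0388). The share of Slit3 in the summed Slit level per kb was 56.6, 45.3, 53.7 and 54.5% in the Lgr6-null libraries, against 71.2, 68.4, 68.9 and 75.5% in the wild-type libraries. It was smaller in every Lgr6-null library than in any wild-type library. The size of this share depends on the annotated exon lengths, 25.4 kb for Slit2 and 6.07 kb for Slit3. In normalized counts, without division by length, Slit2 was above Slit3 in every library.

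Robo2 (ENSMUSG00000052516, chromosome 16) had 23.4, 20.1, 10.4 and 9.55 normalized counts in the Lgr6-null libraries, against 172, 408, 234 and 239 in the wild-type libraries. These values rested on 71 reads over the Lgr6-null libraries and 1074 over the wild-type libraries, and the mean level in Lgr6-null was 6.02% of that in wild-type (log2 fold change -3.99 with SE 0.34, adjusted p = 5.06e-05). The fall was the largest of all members, and every Lgr6-null library was far below every wild-type library. Robo1 had 616, 548, 337 and 649 normalized counts in the Lgr6-null libraries, against 449, 518, 464 and 444 in the wild-type libraries, with overlap (log2 fold change 0.16 with SE 0.18, adjusted p = 0.584), although it was called higher without Lgr6-null M3, its lowest library (log2 fold change 0.37, adjusted p = 0.0163). Robo1 and Robo2 lie 845.7 kb apart on chromosome 16 in the GRCm38 annotation. The share of Robo2 in the summed level of Robo1 and Robo2 per kb was 3.56, 3.44, 2.91 and 1.41% in the Lgr6-null libraries, against 27.1, 43.4, 32.9 and 34.4% in the wild-type libraries, so nearly all of their joint level in Lgr6-null was Robo1. Robo3 and Robo4 were close to absent. Robo3 had 11 reads in Lgr6-null and 2 in wild-type, both of them in M2. The ratio of read rates was 5.26, with an exact 95% binomial interval from 1.15 to 48.8 that covers counting error only. Robo4, a receptor of endothelial cells, had 3 reads in Lgr6-null and 8 in wild-type, all 8 of them in library M0, with a ratio of 0.358 and an interval from 0.0612 to 1.49.

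All 3 netrins measured changed. Ntn4 (ENSMUSG00000020019, chromosome 10), a netrin of basement membranes that binds laminin, had 479, 187, 478 and 101 normalized counts in the Lgr6-null libraries, against 66.8, 56.8, 51.4 and 79.8 in the wild-type libraries. The genotypes did not overlap (log2 fold change 2.01 with SE 0.45, adjusted p = 0.00992), but libraries M0 and M3 of Lgr6-null stood far above M2 and M4. The summed macrophage markers of the same libraries were 513276, 404113, 609629.8 and 405296 normalized counts, mostly from Lyz2, so M0 and M3 were also the higher ones there. M0 and M3 stood above M2 and M4 for each listed macrophage marker except Cd68 and Fcer1g. In the wild-type libraries the macrophage sums were 264597, 273142, 313743 and 293917. There Ntn4 was lowest in M2, where the sum was highest. For Efna2, Lgr6-null M0 and M3 were the lower ones. The part of the macrophage level in the Ntn4 and Efna2 values was not tested. Ntn1, the canonical axon attractant, had 134, 109, 146 and 136 normalized counts in the Lgr6-null libraries, against 64.0, 76.7, 55.7 and 87.3 in the wild-type libraries and rose evenly (log2 fold change 0.89 with SE 0.17, adjusted p = 0.00420). Ntn3 had 62.6, 54.4, 40.1 and 97.4 normalized counts in the Lgr6-null libraries, against 140.1, 116, 123 and 122 in the wild-type libraries and fell (log2 fold change -1.03 with SE 0.24, adjusted p = 0.0109). Ntn3 shares 89 exon bases with Tbc1d24 on the same strand. The share of Ntn4 in the summed level of the 3 netrins per kb was 79.2, 64.1, 80.4 and 40.0% in the Lgr6-null libraries, against 32.2, 30.4, 29.4 and 36.1% in the wild-type libraries. That of Ntn3 was 7.58, 13.7, 4.95 and 28.1% in the Lgr6-null libraries, against 49.4, 45.2, 51.5 and 40.3% in the wild-type libraries. Ntn3 thus held the largest share in every wild-type library and Ntn4 in every Lgr6-null library.

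Of the 4 netrin receptors tested, 3 fell and 0 rose. Unc5b (ENSMUSG00000020099, chromosome 10), with the highest level per length of all 35 members (466 ± 94.0 per kb in Lgr6-null and 1028 ± 97.1 per kb in wild-type), had 3132, 3600.4, 2226 and 2701 normalized counts in the Lgr6-null libraries, against 6834, 7035, 5732 and 6124 in the wild-type libraries. The mean in Lgr6-null was 45.3% of that in wild-type, without overlap (log2 fold change -1.16 with SE 0.14, adjusted p = 3.41e-04). Neo1, which encodes neogenin, had 1246, 1351, 872 and 1479.6 normalized counts in the Lgr6-null libraries, against 2160.2, 2163, 2115 and 2172 in the wild-type libraries. The coefficient of variation was 21.1% in Lgr6-null and 1.19% in wild-type, and the genotypes did not overlap (log2 fold change -0.83 with SE 0.14, adjusted p = 0.00232). Unc5a had 5.85, 7.54, 12.6 and 21.0 normalized counts in the Lgr6-null libraries, against 41.7, 75.7, 66.2 and 73.4 in the wild-type libraries, low in all Lgr6-null libraries and without overlap (log2 fold change -2.47 with SE 0.37, adjusted p = 0.00134). Unc5a shares 34 exon bases with Hk3 on the opposite strand, which averaged 2736 normalized counts. The shares within the summed Unc5a, Unc5b and Unc5c level per kb overlapped between the genotypes. That of Unc5b was 98.7, 98.8, 97.9 and 97.3% in the Lgr6-null libraries, against 98.5, 98.0, 97.9 and 97.7% in the wild-type libraries, and that of Unc5a was 0.277, 0.311, 0.835 and 1.14% in the Lgr6-null libraries, against 0.903, 1.58, 1.70 and 1.76% in the wild-type libraries. Unc5c had 85.5 to 132 normalized counts in Lgr6-null, against 80.1 to 123 in wild-type and was at 0.05 (95% interval -0.37 to 0.46) without a call. Dcc, the classical netrin receptor, did not pass the filter, with 12 reads in Lgr6-null and 3 in wild-type. The ratio was 3.82, with an interval from 1.03 to 21.1 that covers counting error only. The Golgi gene Unc50 was at -0.09 (95% interval -0.23 to 0.05), with mean normalized counts of 649 ± 35.4 in Lgr6-null and 689 ± 15.4 in wild-type (SD, n = 4 each), and was not called.

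Of the neogenin ligands, Rgmb had 749, 725, 825 and 724 normalized counts in the Lgr6-null libraries, against 652, 573, 578 and 628 in the wild-type libraries, a small rise without overlap (log2 fold change 0.31 with SE 0.07, adjusted p = 0.0109). The rise was lost with libraries scaled to pan-mesenchymal genes (log2 fold change 0.10, adjusted p = 0.558), the scaling under which the median gene was at -0.22. With the replicate block Rgmb was not called either. Rgma had 34.2, 35.2, 52.8 and 26.7 normalized counts in the Lgr6-null libraries, against 21.3, 20.8, 24.4 and 25.3 in the wild-type libraries; its values did not overlap either, yet it was not called (log2 fold change 0.64 with SE 0.23, adjusted p = 0.0730). It was called without Lgr6-null M4 (log2 fold change 0.78, adjusted p = 0.0353), when libraries were set to equal totals (adjusted p = 0.0366), after quantile normalization (adjusted p = 0.0447) and in edgeR (adjusted p = 0.0473).

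**Figure D3:**
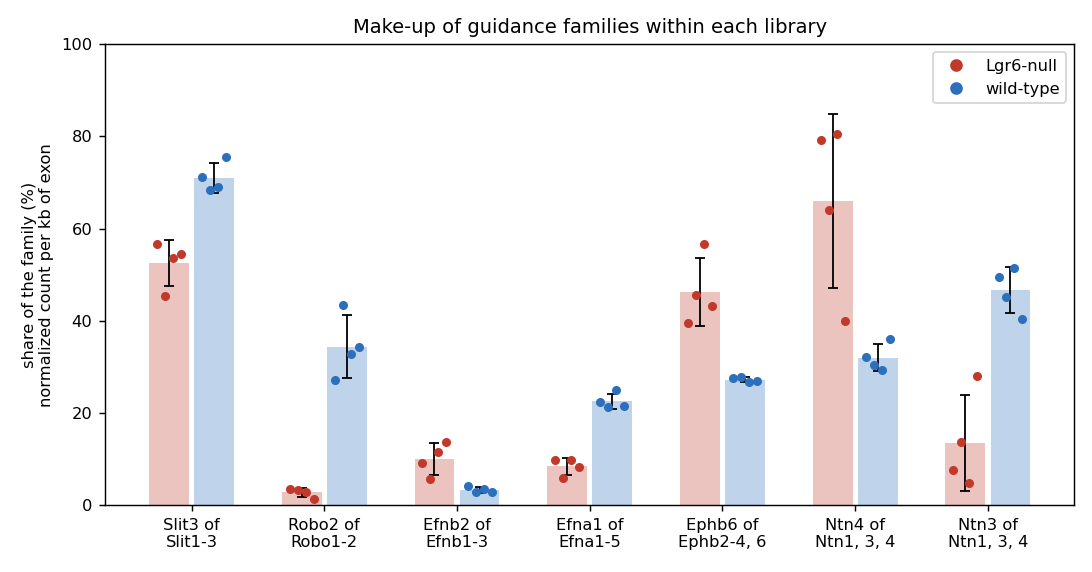
Share of 1 member in its family within each library, from normalized counts per kb of exon (in %); bars are means, error bars SD of 4 libraries and points libraries, in red for Lgr6-null and in blue for wild-type. The genotypes do not overlap in the 7 shares drawn (those of Unc5a and Unc5b, not drawn, overlap): Robo2 is at 1.41% to 3.56% in Lgr6-null against 27.1% to 43.4% in wild-type, and Efnb2 at 5.74% to 13.8% against 2.85% to 4.26%.

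The members shared a pattern among the Lgr6-null libraries that the genotype does not give. Library M3 held the lowest of the 4 Lgr6-null values in 16 of the 30 tested members (53.3%), against 29.7% of all tested genes, and M4 the highest in 15 (50.0%), against 26.4%. Low values in M3 were not particular to the members. M3 was also the lowest Lgr6-null library for the osteoblast markers Col1a1, Col1a2, Runx2, Sp7, Alpl and Pth1r. For the other listed osteoblast markers M4 was the lowest. Of the partner genes named below, all but Prrg4 and Draxin were lowest in M3 among the Lgr6-null libraries. Among wild-type libraries no library was lowest in more than 10 members or highest in more than 10. The members share these libraries, so the counts are a description of the libraries and not a test. M3 was the deepest library with the highest macrophage sum, and M4 the shallowest; the part of either in the members' values was not tested.

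**Figure D4:**
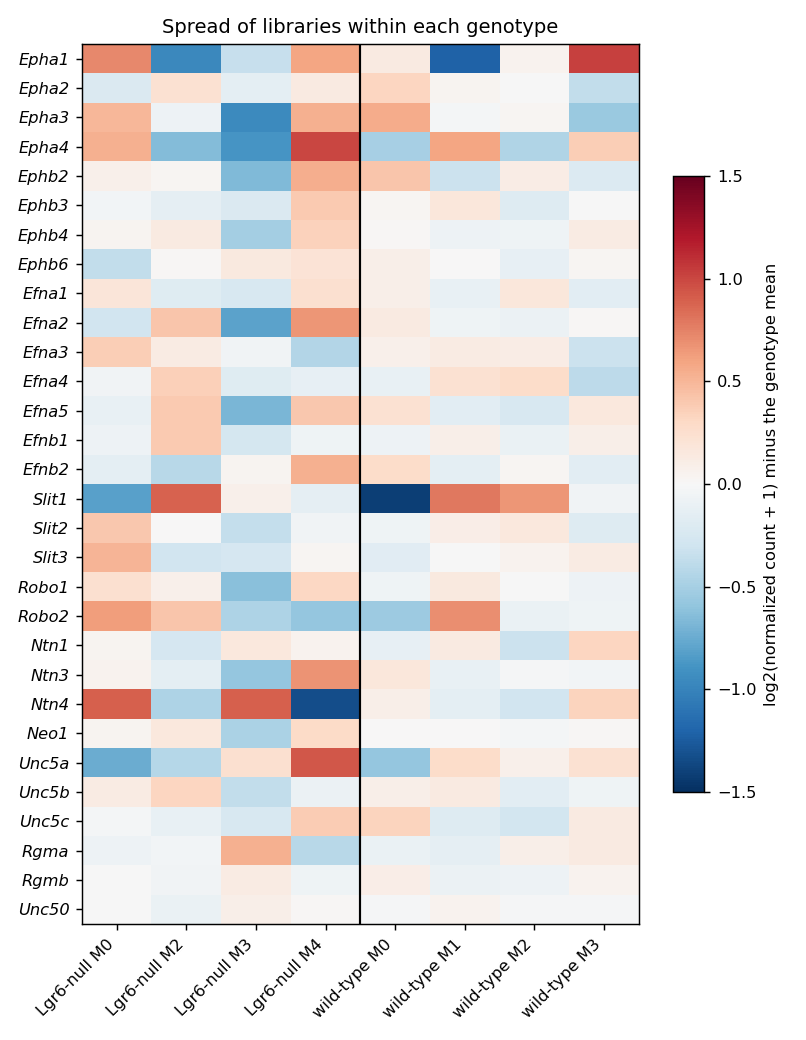
Deviation of each library from its genotype mean, in log2(normalized count + 1), for the 30 tested members (rows); Lgr6-null libraries stand left of the line and wild-type libraries right of it. The column of Lgr6-null M3 is mostly blue (lowest in 16 members) and that of M4 mostly red (highest in 15), and Neo1 is nearly white in wild-type.

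Partners of these receptors and ligands also changed in both directions. Of 81 genes on the lists of partners, 76 were in the table and 72 passed the filter; 12 rose and 19 fell, 43.1% called against 25.7% of all tested genes, and their median was -0.05 on the log2 scale. The count of rises turned on single libraries and on the scaling: it was 4 without Lgr6-null M0, 7 without Lgr6-null M2, wild-type M0 or wild-type M1, 21 (with 14 falls) at equal totals and 4 (with 24 falls) with pan-mesenchymal scaling. Among 34 Eph and ephrin signal partners tested, 5 rose and 7 fell (median 0.04). Rgs3, a regulator of G protein signaling that binds class B ephrins, had mean normalized counts of 755 ± 61.0 in Lgr6-null and 1566 ± 96.8 in wild-type (SD, n = 4 each), a fall (log2 fold change -1.05 with SE 0.07, adjusted p = 2.07e-05). Arhgef19, a guanine nucleotide exchange factor of the ephexin family, was at -1.21, and the phosphatase Acp1 at -0.67. Anks1, an adaptor of Eph receptors, rose by 0.41 on the log2 scale, a call lost with pan-mesenchymal scaling (log2 fold change 0.20, adjusted p = 0.198).

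Among 17 Slit and Robo partners tested, 3 rose and 5 fell (median 0.05). The heparan sulfate proteoglycan Gpc1, which binds Slits, had mean normalized counts of 3475 ± 504 in Lgr6-null and 10646 ± 1299 in wild-type (SD, n = 4 each) and fell (log2 fold change -1.62 with SE 0.12, adjusted p = 2.07e-05). Dag1, encoding dystroglycan, a Slit-binding matrix receptor, was at -0.35, and Srgap1, a GTPase activating protein that acts below Robo, at -0.86; both fell. Prrg4, a transmembrane Gla protein, rose (1.19). With the replicate block Dag1 (adjusted p = 0.0728) and Prrg4 (adjusted p = 0.0547) were no longer called.

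Among 21 partners of netrins, Unc5 receptors, neogenin and the repulsive guidance molecules, 4 rose and 7 fell (median -0.14). Flrt2, a membrane ligand of Unc5 receptors and latrophilins, had mean normalized counts of 1029 ± 293 in Lgr6-null and 488 ± 102 in wild-type (SD, n = 4 each) and rose (log2 fold change 1.06 with SE 0.20, adjusted p = 0.00440). The secreted Dcc ligand Draxin had mean normalized counts of 9.19 ± 3.48 in Lgr6-null and 41.2 ± 13.1 in wild-type (SD, n = 4 each) and fell (log2 fold change -2.06 with SE 0.33, adjusted p = 0.00176), so its Lgr6-null level rested on few reads. The latrophilin Adgrl1 (-0.41) and Maged1 (-0.43), which binds the inner part of Unc5a, fell. The Maged1 call was lost with the replicate block (adjusted p = 0.0609).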

How the data were processed

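Polyadenylated RNA of 8 libraries, 4 per genotype, was sequenced with a stranded mRNA kit, per the labels. HISAT2 2.1.1, HTSeq 0.13.5, DESeq2 and GRCm39 appear in the submitters' processing notes; the annotation is not given in the sources used here, nor is the strand setting. Deposited values are a signal, read counts divided by the authors by 1 factor per library: 100% of values were whole multiples of 1 step within 0.01 read, so whole reads were recovered. Columns show a genotype and a number that is not tied to the replicate numbers of the titles, so they were assigned to genotypes only. Chi-square over degrees of freedom was 8.59 or more for each pair of libraries within a genotype, so none was a copy of another. The lowest total of a gene was 11 reads.

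Genotypes were tested with limma 3.58.1 under R 4.3.3, letting the variance follow the mean, on log2(normalized count + 1), a scale that understates changes of low genes. The fit covered all 14294 genes with at least 10 in at least 4 libraries, without covariates. A positive fold change means higher in Lgr6-null. Symbols, chromosomes and exon lengths came from GENCODE M21 (GRCm38), a build other than that of the files, matched by gene identifier (19361 matched, 99 did not). Levels between genes were compared per kb of all annotated exons, which underrates genes with many transcript forms. Ratios of low genes have exact 95% binomial intervals (SciPy 1.17.1), which cover counting error only and not differences between libraries.

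Named were Lgr6, Ephb4, Efnb2, Slit3, all called members, members under the filter by their reads and up to 4 called genes per list of partners by smallest p. Values per library were to be printed for called members with a mean of at least 50; those of Epha1, Epha4, Unc5a, Efna2, Epha3, Slit1, Slit2, Robo1 and Rgma, and the other members, were added after their values were seen. The members, lists and tests were chosen with earlier results of these data known. The limma test was tested on simulated data. Alternatives were 2 pseudocounts, no filter or a mean of at least 50, 3 other scalings, edgeR 4.0.16 and DESeq2 1.42.0 on the whole reads, a replicate block and leaving out each library.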

Additional observations from a re-analysis of the deposited data

Results flagged for a closer look

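Single libraries stood apart from the other 3 of their genotype for 6 values, with a gap to the nearest other library above Dixon's 95% critical share of the range, among 96 groups of 4 looked at; chance flags about 1 in 20. Efna3 was at 54.4 normalized counts in wild-type M3, with the nearest other library at 72.3, and Unc50 was at 712 in wild-type M1, with the nearest at 683. The Robo partner Srgap1 was at 357 in wild-type M1, with the nearest at 292. The other values rest on few reads: Dcc at 7.64 in Lgr6-null M4 (nearest 2.50), Robo3 at 1.74 in wild-type M2 (the others at 0) and Robo4 at 7.42 in wild-type M0 (the others at 0).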

How the results depend on the processing

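Of the 18 called guidance genes, 11 were called under all 18 alternatives, 1 (Unc5a) under the 17 in which it was tested, as its mean was under 50, 6 were lost under at least 1 and 0 turned in direction; 5 of the 12 members not called were called under at least 1. Guidance genes called ranged from 5 to 8 higher and from 9 to 13 lower, within 1.5 times of 7 and 11. edgeR with TMM on the whole reads called 8 higher and 11 lower, and DESeq2 7 and 11. Setting libraries to equal totals gave 2886 genes higher and 1281 lower in all, pan-mesenchymal scaling 658 and 2964, and the reported fit 1855 and 1821. Column numbers M0, M2 and M3 occur in both genotypes, M1 only in wild-type and M4 only in Lgr6-null. With the block, wild-type M1 and Lgr6-null M4 therefore add nothing to the genotype difference. Calls lost or gained there cannot be told apart from the loss of these libraries. Libraries with the same number did not deviate together (r = -0.00960, -0.117 and 0.0267 across genes). These correlations cannot show whether same-numbered libraries were prepared together, and the labels do not say. The replicate block gave 937 genes higher and 1021 lower, 5 and 10 guidance genes, and 3 and 12 partner genes. With the block, Efna3, Efnb1, Epha1, Epha4 and Rgmb were no longer called, while Epha3 and Slit1 were. Partner genes called higher were 12 as reported, 21 at equal totals, 4 with pan-mesenchymal scaling, 8 without a filter and 8 with a mean of at least 50, which tests fewer genes. Leaving out 1 library each gave 1280 to 1797 genes higher, 1286 to 1764 lower and 4 to 13 partner genes higher. Other causes were not tested. Depth limits the members with few reads: Unc5a with 44 in Lgr6-null, Epha1 with 45 and Epha4 with 57 in wild-type, and those under the filter.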
